A study of Mus musculus with 10 samples.

Results

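The units described here are transcribed units of mouse embryonic stem cells that the deposited table classes as Extragenic and that lie more than 50000 bp from the nearest unit of its Single Gene class on either strand. A further condition was that no kept Extragenic unit on the opposite strand overlapped them or started within 1000 bp of their 5′ end. Opposite units of other classes, and Extragenic units below the count limit, were not part of that condition. Of 14893 Extragenic units, 7793 had more than 10 fragments in at least 2 libraries, and 1836 of those met every condition. They are called far units below. The whole table holds 40779 units, of which 28459 passed the same count limit and were tested.

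The cells were E14 embryonic stem cells (given as IB10 for the SOX2 line) in 2i/LIF medium. They were of a clonal line in which both copies of Sox2 encode SOX2 fused at its C-terminus to the FKBP F36V tag. The degrader dTAG-13 at 500 nM removes the tagged protein, and samples were taken at 0.5, 1, 2 and 6 hours post depletion (hpd) beside a non-treated group (NT), with 2 libraries per group. Per the paper, the NT cells were given DMSO in place of dTAG-13. RNA made in the last 10 min was labelled with 2 mM 4-thiouridine, chemically fragmented, pulled down and sequenced by strand (TTchem-seq), which reads transcription rather than the RNA store. All 10 libraries came from the tagged line, and cells without the tag given dTAG-13 were not analysed here, so an effect of the compound and an effect of losing SOX2 cannot be told apart.

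Extragenic transcription in stem cells comes from enhancers, from starts inside repeats left by mobile elements, from unannotated genes and from parts of genes that a unit caller has split off. SOX2 is a high-mobility-group transcription factor that binds enhancers with OCT4 and is needed for the pluripotent state. Most RNA from enhancers and repeats is short-lived, so nascent RNA shows its change before the store of stable RNA does.

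The name Extragenic did not hold for all far units once they were set against RefSeq. Of the 1836, 700 (38.1%) overlapped a RefSeq gene on their own strand, 629 of them by more than 50% of their length. Protein-coding genes held 324 far units in 166 genes, with up to 8 units in 1 gene, and 179 of these units were under 1% exonic. Pseudogenes held 314, long noncoding RNA genes 40, and small or other RNA genes 22. Another 125 lay opposite a gene only, and 1011 lay outside every RefSeq gene on both strands, 82 of which overlapped a GENCODE gene on their own strand. Only 332 were more than 50000 bp from any RefSeq gene. The far units are therefore described by these classes.

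**Figure D1:**
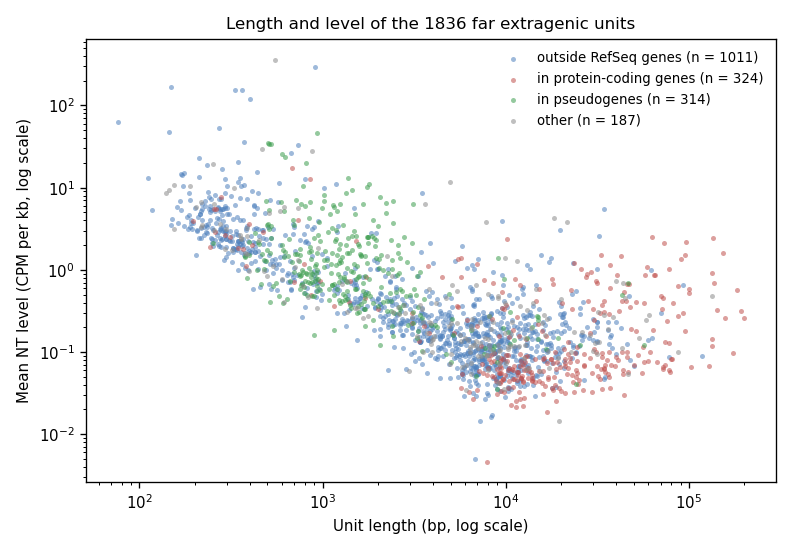
Length (bp) and mean level in the NT libraries (CPM per kb, where CPM is the count scaled to a common library total) of each far unit, both on log scales, coloured by RefSeq class. Units in pseudogenes are short and dense, units in protein-coding genes are long and sparse, and units outside RefSeq genes run over the whole range.

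Far units were mostly short of reads. Their median length was 5024 bp (76 to 201104 bp) and their median fragment number over the 10 libraries was 157.5 (32 to 50032). The median distance to a Single Gene unit was 164447.5 bp. They lay on 21 chromosomes, 966 on the plus strand and 870 on the minus strand, and formed 1587 chains when units of 1 strand within 10000 bp were joined. Library totals ran from 11131490 to 25854106 fragments, and far units took 0.814% to 0.932% of them. Per kb, the median NT level was 0.92 CPM in pseudogenes, 0.24 CPM outside RefSeq genes and 0.09 CPM in protein-coding genes.

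Many far units started in sequence that resembled the start of another far unit. When the 300 bp around each 5′ end were compared on the same strand, 698 of 1836 windows (38.0%) matched another over at least 150 bp at 80% identity or more, and 578 fell into 25 families of 5 or more, numbered below by size. Windows were joined into a family through any single match, so not all members of a family need match each other. Families were built from sequence alone, but those described were picked after their levels were known, so their values carry no test. Windows are printed for 3 of the families in which most units were lower at 6 hpd. Lower units numbered 23 of 37 in family 5, 9 of 10 in family 9 and 4 of 6 in family 20. Families 8 and 22 also had most units lower (7 of 13 and 4 of 5) and are not printed. All windows come from GRCm38 (mm10), in the 5′ to 3′ direction of the unit, from 150 bp before the start of the unit. In the first window of each family, capitals mark bases that were identical in both of the others. In the other windows, capitals mark bases identical to the first.
Family 20, chrX:150147235-150147534, plus strand: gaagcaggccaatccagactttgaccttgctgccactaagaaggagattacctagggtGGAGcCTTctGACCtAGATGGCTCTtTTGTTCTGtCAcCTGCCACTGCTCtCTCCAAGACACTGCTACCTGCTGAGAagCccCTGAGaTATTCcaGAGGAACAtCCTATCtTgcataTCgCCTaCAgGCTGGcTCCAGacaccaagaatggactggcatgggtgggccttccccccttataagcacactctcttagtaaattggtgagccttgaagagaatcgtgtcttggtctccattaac
Family 20, chr3:22297801-22298100, minus strand: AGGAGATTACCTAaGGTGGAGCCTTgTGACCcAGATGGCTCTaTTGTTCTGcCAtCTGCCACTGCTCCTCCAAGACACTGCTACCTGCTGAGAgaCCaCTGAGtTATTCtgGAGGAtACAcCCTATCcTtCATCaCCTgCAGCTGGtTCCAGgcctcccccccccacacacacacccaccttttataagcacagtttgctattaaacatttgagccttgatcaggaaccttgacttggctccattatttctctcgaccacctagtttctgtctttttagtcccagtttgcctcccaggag
Family 20, chr7:87101247-87101546, minus strand: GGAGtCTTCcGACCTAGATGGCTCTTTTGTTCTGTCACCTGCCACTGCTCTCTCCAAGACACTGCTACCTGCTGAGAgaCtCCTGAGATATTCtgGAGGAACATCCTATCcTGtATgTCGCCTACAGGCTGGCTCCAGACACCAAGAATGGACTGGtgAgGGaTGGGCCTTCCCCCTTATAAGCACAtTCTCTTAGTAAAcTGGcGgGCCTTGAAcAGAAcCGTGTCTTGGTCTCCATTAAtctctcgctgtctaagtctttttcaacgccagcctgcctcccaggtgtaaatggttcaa
Family 9, chr5:18799641-18799940, minus strand: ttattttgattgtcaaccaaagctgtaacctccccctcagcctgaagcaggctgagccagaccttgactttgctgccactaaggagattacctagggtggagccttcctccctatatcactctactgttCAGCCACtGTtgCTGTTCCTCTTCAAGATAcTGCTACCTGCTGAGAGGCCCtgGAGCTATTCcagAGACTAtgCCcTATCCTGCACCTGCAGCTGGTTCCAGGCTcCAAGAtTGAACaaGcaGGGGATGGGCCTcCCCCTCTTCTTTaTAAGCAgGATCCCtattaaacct
Family 9, chrX:88580096-88580395, plus strand: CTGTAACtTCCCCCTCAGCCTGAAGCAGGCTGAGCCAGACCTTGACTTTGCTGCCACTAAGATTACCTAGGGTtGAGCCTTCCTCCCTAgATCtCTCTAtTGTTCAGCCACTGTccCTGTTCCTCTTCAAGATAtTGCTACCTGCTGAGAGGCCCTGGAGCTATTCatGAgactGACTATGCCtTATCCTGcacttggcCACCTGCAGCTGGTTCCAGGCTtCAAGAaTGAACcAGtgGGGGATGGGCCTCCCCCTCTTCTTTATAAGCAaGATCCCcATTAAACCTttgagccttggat
Family 9, chr1:17250897-17251196, plus strand: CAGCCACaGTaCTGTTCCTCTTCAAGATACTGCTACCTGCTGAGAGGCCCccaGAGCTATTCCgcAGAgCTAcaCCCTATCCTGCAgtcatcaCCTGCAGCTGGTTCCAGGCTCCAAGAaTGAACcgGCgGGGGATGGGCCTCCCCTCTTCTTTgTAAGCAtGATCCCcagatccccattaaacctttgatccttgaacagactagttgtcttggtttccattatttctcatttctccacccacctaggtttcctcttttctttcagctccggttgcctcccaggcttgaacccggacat
Family 5, chr6:44204663-44204962, plus strand: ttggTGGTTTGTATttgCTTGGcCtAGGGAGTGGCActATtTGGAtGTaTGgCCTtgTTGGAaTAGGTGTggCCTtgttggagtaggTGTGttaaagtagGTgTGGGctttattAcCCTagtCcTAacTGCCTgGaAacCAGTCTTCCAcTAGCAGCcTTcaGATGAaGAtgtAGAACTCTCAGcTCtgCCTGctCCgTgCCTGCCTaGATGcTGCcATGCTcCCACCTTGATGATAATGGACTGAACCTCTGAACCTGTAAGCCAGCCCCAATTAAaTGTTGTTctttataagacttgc
Family 5, chr10:48880379-48880678, plus strand: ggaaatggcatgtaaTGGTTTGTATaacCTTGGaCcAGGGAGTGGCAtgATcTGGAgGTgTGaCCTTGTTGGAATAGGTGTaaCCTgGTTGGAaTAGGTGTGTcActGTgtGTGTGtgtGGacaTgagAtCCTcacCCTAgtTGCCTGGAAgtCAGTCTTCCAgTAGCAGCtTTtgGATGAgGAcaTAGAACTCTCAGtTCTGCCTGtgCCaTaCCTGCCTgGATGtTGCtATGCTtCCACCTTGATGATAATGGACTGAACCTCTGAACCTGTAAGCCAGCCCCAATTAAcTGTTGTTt
Family 5, chr4:15543484-15543783, minus strand: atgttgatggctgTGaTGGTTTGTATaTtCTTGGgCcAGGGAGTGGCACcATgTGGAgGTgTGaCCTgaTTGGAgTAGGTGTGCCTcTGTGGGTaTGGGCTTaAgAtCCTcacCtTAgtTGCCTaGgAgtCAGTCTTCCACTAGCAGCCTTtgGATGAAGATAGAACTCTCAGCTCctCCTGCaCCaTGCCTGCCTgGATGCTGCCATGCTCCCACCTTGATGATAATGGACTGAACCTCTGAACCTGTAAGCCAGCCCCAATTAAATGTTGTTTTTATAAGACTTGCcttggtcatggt
All 6 printed windows of families 20 and 9 held the run tgctacctgctgaga, of 15 bases.

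Far units that changed after SOX2 depletion fell far more often than they rose. At 0.5 hpd, 12 of 1836 were lower and 2 higher than NT (edgeR quasi-likelihood test, adjusted p below 0.05), where 0.787% of all tested units were lower and 0.527% higher. At 1 hpd the counts were 68 lower and 7 higher, or 3.70% and 0.381% of far units, against 3.61% and 2.15% of all units. At 2 hpd they were 115 and 29 (6.26% and 1.58%, against 5.57% and 4.26%). At 6 hpd they were 220 and 64 (12% and 3.49%, against 9.2% and 6.61%). The share of lower far units was thus near the background at each of the first 3 times and somewhat above it at 6 hpd, whereas the share of higher ones stayed below it. The count limit itself favours such calls, since a unit can meet it through the libraries in which it is high. In order of time, 7 of 12, 42 of 68, 75 of 115 and 165 of 220 lower units (58.3%, 61.8%, 65.2% and 75%) met it in libraries outside both groups compared. So did 82.1%, 89.2%, 87.3% and 91.0% of the units not called at those times. Of the higher units 2 of 2, 6 of 7, 29 of 29 and 60 of 64 did. Nothing in the labels says that replicates were separate cultures, so these p-values measure the spread between the libraries, which may be technical. In every called far unit, both depleted libraries lay outside the range of the NT pair. The joint test over the 4 times called 203 far units, where it called 12.3% of all units. The median log2 fold change over all far units was -0.07, -0.14, -0.12 and -0.11 in order of time, against -0.02, -0.04, -0.04 and -0.04 over all tested units.

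The median called fall of far units was 4.47-fold at 1 hpd and 4.45-fold at 6 hpd. It was 3.4-fold and 3.39-fold for the unpaired Extragenic units nearer to genes, 2.57-fold and 3.00-fold for the paired ones, and 1.80-fold and 1.84-fold for Single Gene units. Only called units enter these medians, and far units had a median of 157.5 fragments against 3533 for Single Gene units, so the sizes cannot be compared as responses. These medians did not move when units at 0 in both libraries were held at 3 counts over the group (9 far units at 6 hpd, 7 of them called). Counts also leaned on single libraries. Without NT replicate 2 the calls fell to 32 at 1 hpd, 56 at 2 hpd and 131 at 6 hpd. Without 1 of the 1 hpd libraries they were 34 and 36, without 2 hpd replicate 1 they were 66, and without 6 hpd replicate 1 they were 142. At 0.5 hpd leaving out either NT or either 0.5 hpd library gave 8, 0, 4 or 3 calls, the 0 (without NT replicate 2) beside 120 far units at an unadjusted p under 0.05. The joint test gave 135 without 6 hpd replicate 1. In bulk libraries such as these, less RNA per cell and fewer cells that make it cannot be told apart.

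**Figure D2:**
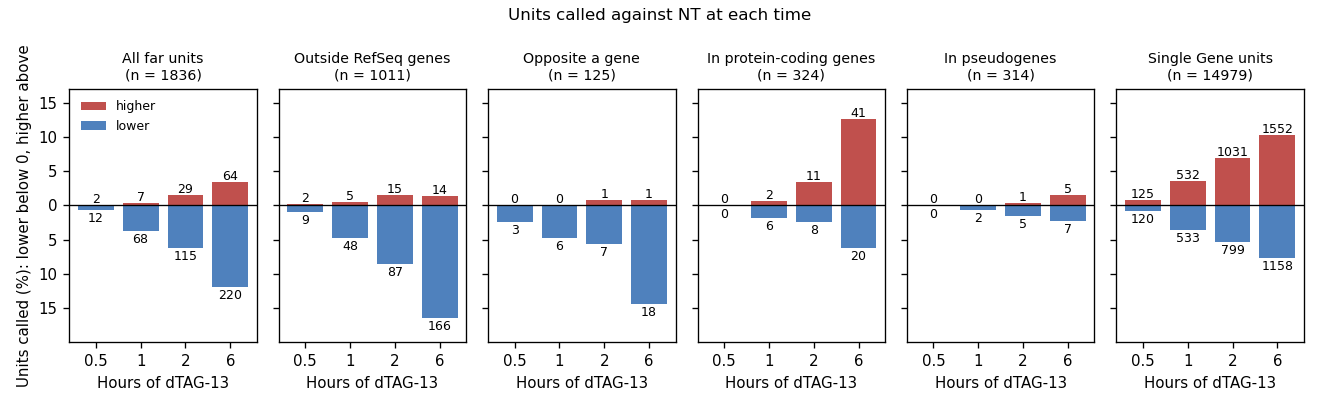
Share of units (%) called higher (above 0) or lower (below 0) than NT at each time of dTAG-13, for all far units, 4 of their RefSeq classes and the Single Gene units, with the number of units above or below each bar. At 6 hpd, 166 of 1011 units outside RefSeq genes were lower and 14 higher, and of 324 units inside protein-coding genes 20 were lower and 41 higher.

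Calls were split differently over the classes. Outside every RefSeq gene, 9, 48, 87 and 166 of 1011 units were lower in order of time and 2, 5, 15 and 14 were higher, so that 16.4% were lower and 1.38% higher at 6 hpd. Over all tested units, 0.787%, 3.61%, 5.57% and 9.2% were lower in the same order and 0.527%, 2.15%, 4.26% and 6.61% higher. Of the 125 units opposite a gene, 18 were lower and 1 higher at 6 hpd. Of the 332 units more than 50000 bp from any RefSeq gene, 60 (18.1%) were lower and 1 higher. Inside protein-coding genes 20 of 324 were lower and 41 higher at 6 hpd (6.17% and 12.7%), where 7.73% of 14979 Single Gene units were lower and 10.4% higher. These are counts of pieces, and the 41 higher ones lay in 27 genes, with 7 in Celf2, 4 in Ank3 and 3 each in Carmil1 and Rims2, and the 20 lower ones in 15. Among the other Extragenic units, 438 of 4226 unpaired ones within 50000 bp of a Single Gene unit were lower at 6 hpd and 84 higher, and of 1731 with a partner on the opposite strand 266 were lower and 55 higher. Whether the classes differ was not tested. Without NT replicate 2, 6 hpd replicate 1 or 6 hpd replicate 2, the lower units outside RefSeq genes numbered 73, 81 and 104, and the higher units in protein-coding genes 14, 22 and 17, with 27 of the latter without NT replicate 1.

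**Figure D3:**
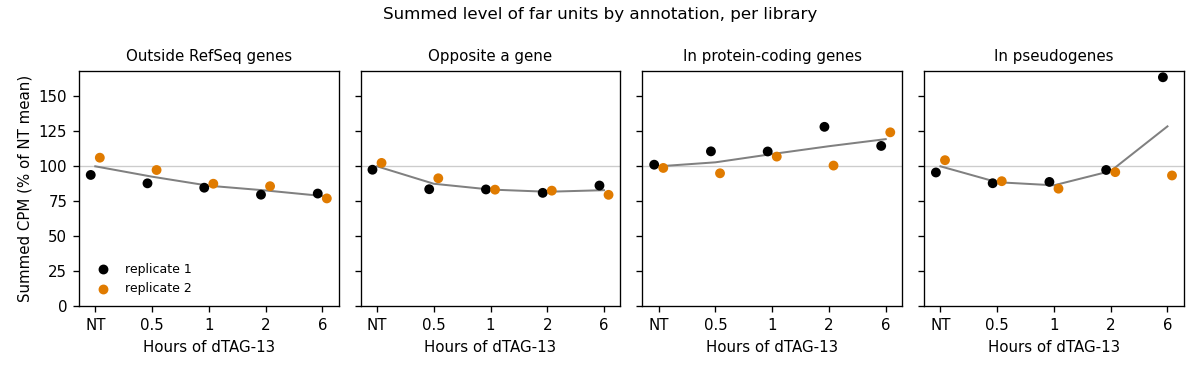
Summed level of far units of 4 RefSeq classes in each library, as a percentage of the mean of the NT libraries, by hours of dTAG-13. Points are libraries and lines join means, with the times evenly spaced. Units outside RefSeq genes stood at 80.5% and 77.1% at 6 hpd, and the point at 164% is the pseudogene sum of 6 hpd replicate 1.

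Summed over the class, units outside RefSeq genes read 2630 and 2975 CPM in NT, 2462 and 2729 CPM at 0.5 hpd, 2374 and 2453 CPM at 1 hpd, 2234 and 2404 CPM at 2 hpd and 2257 and 2160 CPM at 6 hpd. All libraries from 1 hpd on were below both NT libraries. Units in protein-coding genes read 3942 and 3852 CPM in NT and 4465 and 4844 CPM at 6 hpd, without overlap, but 4997 and 3918 CPM at 2 hpd, where 1 library lay within the NT range and the other above both of 6 hpd.

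The 5 units named for their falls at 1 hpd were 15.5 to 44.9 kb long, with 3 outside RefSeq genes and 2 opposite one. Distances given below are to the nearest Single Gene unit unless a RefSeq gene is named. The unit at chrX:150147385-150187271, on the plus strand opposite the gene model Gm20153 and 192 kb from Tmem29, is the first printed member of family 20. It read 28.5 and 29.5 CPM in NT, 14.5 and 13.8 CPM at 0.5 hpd, 5.33 and 7.35 CPM at 1 hpd, 3.29 and 4.50 CPM at 2 hpd and 1.69 and 2.74 CPM at 6 hpd. Each pair lay below the pair before it. The log2 difference from NT was -1.03 ± 0.18 (SE, n = 2 libraries per group) at 0.5 hpd, -2.19 ± 0.19 at 1 hpd and -3.69 ± 0.22 at 6 hpd (adjusted p = 0.00783, 7.01e-06 and 6.32e-08). It was also the only far unit called between 0.5 and 1 hpd (-1.15 ± 0.19, adjusted p = 0.0336), a call lost without any 1 of the NT, 0.5 hpd or 1 hpd libraries (adjusted p = 0.0848 to 0.674) and when units averaging under 50 counts were left out (adjusted p = 0.064). In that step 0.0984% of all units were lower and 0.0105% higher. At an unadjusted p under 0.05, 83 far units were lower and 24 higher in that step.

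The unit at chr3:22274782-22297950, on the minus strand and 23.2 kb from the nearest RefSeq gene Rprl2, followed nearly the same course. Its levels were 26 and 30.4 CPM in NT, 14.2 and 11.6 CPM at 0.5 hpd, 6.52 and 5.18 CPM at 1 hpd, 2.17 and 3.56 CPM at 2 hpd and 1.33 and 2.15 CPM at 6 hpd. The fit gave a log2 fold change of -1.11 ± 0.19 at 0.5 hpd and -3.98 ± 0.25 at 6 hpd (adjusted p = 0.0088 and 8.92e-08). No library of 1 hpd or later overlapped those of 0.5 hpd. The unit at chr7:87054046-87101396, 145 kb from Nox4, read 19.4 and 25.7 CPM in NT, 5.14 and 6.26 CPM at 1 hpd and 2.53 and 4.43 CPM at 6 hpd. It did not pass the test at 0.5 hpd (-0.89 ± 0.22, adjusted p = 0.0628) and did at 6 hpd (-2.67 ± 0.25, adjusted p = 4.53e-06).

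These 3 units start in the printed windows of family 20, which has 6 members on 5 chromosomes. Over the family, lower units numbered 2, 4, 5 and 4 in order of time, and the median log2 fold change went from -1.04 to -2.08, -2.42 and -3.18. At 0.5 hpd the summed CPM stood at 49.7% and 48.7% of the NT mean in the pair of libraries. By 1 hpd it was down to 21.8% and 24.1%, and by 6 hpd to 7.94% and 12.7%. The member that never passed the test, at chr3:22038353-22042130, read 0.808 and 0.799 CPM in NT and 0.632 and 0.524 CPM at 6 hpd. Outside the far units, 6 tested units had a start like one of this family, and 4 of those were lower at 6 hpd.

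**Figure D4:**
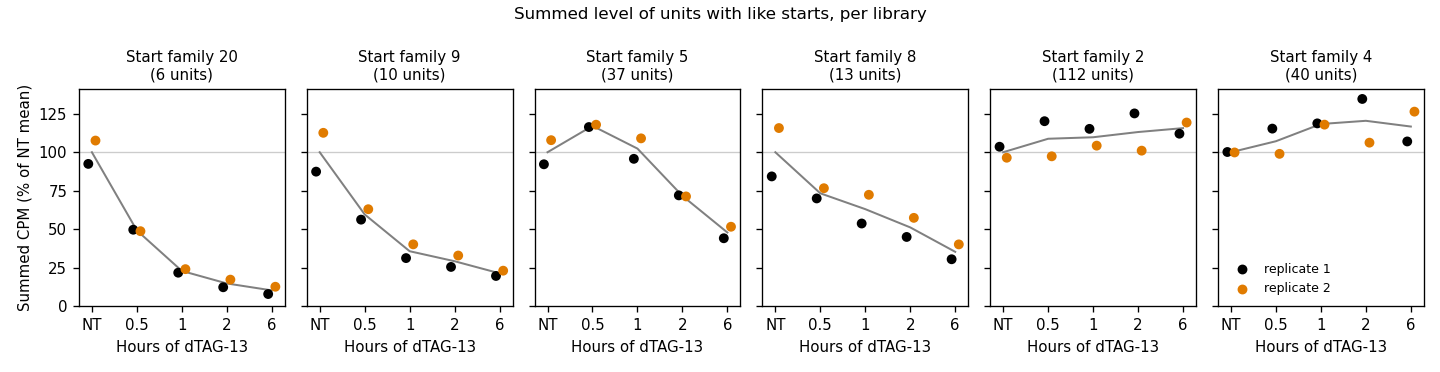
Summed CPM of the units of 6 families with like starts, as a percentage of the mean of the NT libraries, in each library by hours of dTAG-13, evenly spaced. Families 20, 9 and 8 fell from 0.5 hpd on, family 5 was at 116% and 118% at 0.5 hpd and fell later, and families 2 and 4 did not go below 96.4% in any library.

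Family 9 held 10 units in 10 chains on 8 chromosomes, with a median length of 11430.5 bp, and 9 of them lay outside RefSeq genes. All 10 had a log2 fold change below 0 at each time. Lower units numbered 2, 7, 9 and 9 in order of time, and the family median went from -0.82 to -1.29, -1.79 and -2.70. Its strongest unit, at chr5:18784247-18799790 and 424 kb from Gnai1, read 21.2 and 25.4 CPM in NT, 14.9 and 13.7 CPM at 0.5 hpd, 8.97 and 8.94 CPM at 1 hpd, 8.09 and 8.24 CPM at 2 hpd and 6.6 and 7.22 CPM at 6 hpd. Most of that fall was over by 1 hpd. The log2 difference from NT was -1.38 ± 0.14 at 1 hpd and -1.75 ± 0.15 at 6 hpd, and the 2 times did not differ by the test (-0.37 ± 0.15, adjusted p = 0.205). The unit at chrX:88580246-88604407 fell from 13.2 and 13.4 CPM to 1.76 and 2.21 CPM at 6 hpd (-2.73 ± 0.26, adjusted p = 4.47e-06). The unit at chr1:17251047-17261914 fell from 3.63 and 5.01 CPM to 0.983 and 0.408 CPM (-2.66 ± 0.36, adjusted p = 0.000125). The one member that passed at no time, at chrX:89008465-89012045, had 6 and 17 fragments in NT and 2 in each 6 hpd library. Of 14 other tested units with such a start, 11 were lower at 6 hpd.

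The 15-base run printed above occurred in the start windows of 9 far units (0.490%) and of 9 of the other 26623 tested units (0.0338%). Of the 9 far units, 5 were in family 9 and 3 in family 20. All 9 were lower at 6 hpd and 8 were lower at 1 hpd. Of the 9 others, 7 were lower at 6 hpd and 0 higher. The run was found in units picked for their falls, so these counts are a description.

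Family 5 moved later and not in one direction. It held 37 units on 17 chromosomes, 33 of them outside RefSeq genes, with a median length of 9775 bp. Its summed level was 127 and 148 CPM in NT, 160 and 162 CPM at 0.5 hpd, 131 and 150 CPM at 1 hpd, 98.8 and 97.9 CPM at 2 hpd and 60.6 and 70.9 CPM at 6 hpd. Both libraries of 0.5 hpd were above both of NT, and those of 2 and 6 hpd were below them. The median log2 fold change was 0.25, -0.11, -0.87 and -1.55 in order of time, and lower units numbered 0, 1, 9 and 23. Without NT replicate 2 or 6 hpd replicate 1, 12 and 11 were lower at 6 hpd. At 0.5 hpd, 1 unit of the family was higher and 12 of 37 had a log2 fold change below 0. Of the 206 other tested units with such a start, 11, 13, 6 and 8 were higher in order of time and 2, 10, 26 and 58 lower. Their medians were 0.21, 0.09, -0.28 and -0.62, so at 1 hpd the sign differed from that of the family.

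The unit of family 5 that rose is at chr10:48880529-48907097, on the plus strand, with the gene model Gm3473 as its nearest RefSeq gene at 27.0 kb. Its levels were 9.69 and 11.9 CPM in NT, 19.2 and 20.3 CPM at 0.5 hpd, 15.3 and 22.2 CPM at 1 hpd, 14.6 and 16.7 CPM at 2 hpd and 6.67 and 7.05 CPM at 6 hpd. All libraries from 0.5 to 2 hpd were above the NT pair and both of 6 hpd were below it. Against NT it was higher by 0.87 ± 0.18 on the log2 scale at 0.5 hpd and by 0.80 ± 0.18 at 1 hpd, with a difference of -0.65 ± 0.19 at 6 hpd (adjusted p = 0.022, 0.0122 and 0.0322). The 6 hpd level lay below 1 hpd by -1.45 ± 0.18 (adjusted p = 0.000264). Leaving out NT replicate 1 or 1 hpd replicate 2 took its 1 hpd value past the threshold (adjusted p = 0.116 and 0.234).

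Other families fell in part or not at all. Over all tested units, 9.2% were lower and 6.61% higher at 6 hpd. Family 8 (13 units, all outside RefSeq genes) had 7 lower units at 6 hpd and a median of -1.65, and of 34 other units with such starts 14 were lower. Family 22 (5 units, median length 2522 bp) had 4 lower units and a median of -3.32 at 6 hpd, on 37 to 123 fragments per unit, with 0 left without NT replicate 2, and 1 or 2 when either 6 hpd library was left out. Of these 4 lower units, 3 had more than 10 fragments in NT replicate 2 and 0.5 hpd replicate 1 alone, so they entered the test through libraries in which they were high, and their later fall is no independent result. Families 5, 8, 9, 20 and 22 together held 71 far units, or 3.87%, and 47 of the 220 that were lower at 6 hpd, or 21.4%. Family 2 was the largest family of long units, with 112 units and a median length of 8592.5 bp. It showed 3 lower and 4 higher units at 6 hpd and a median of 0.03. Family 4, with 40 units, had 3 calls at 6 hpd, all higher, and a median of -0.07. Families 1 and 3 were of short units, with 154 and 67 members and median lengths of 325.5 and 322 bp, of which 17 and 11 were lower at 6 hpd with medians of -0.71 and -0.94. Reads from units with like starts can map to more than 1 copy. The study dropped alignments of low mapping quality, so such reads may be missing as well as misplaced. How far that moved the counts of these units was not tested.

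Far units whose start resembled no other far unit were lower about as often as tested units in general. Of 1138 such units, 6, 41, 66 and 114 were lower in order of time and 1, 4, 21 and 50 higher, which put 10.0% lower and 4.39% higher at 6 hpd, against 9.2% and 6.61% of all tested units. Their median log2 fold change at 6 hpd was 0.06. In the families of 5 or more, 94 of 578 were lower at 6 hpd (16.3%) and 13 higher (2.25%), with a median of -0.46.

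The unit at chr17:40470005-40495589, on the minus strand, 173 kb from Crisp1 and like no other far unit at its start, read 8.21 and 9.23 CPM in NT, 3.51 and 2.22 CPM at 0.5 hpd, 1.07 and 1.65 CPM at 1 hpd, 1.31 and 1.23 CPM at 2 hpd and 0.211 and 0.233 CPM at 6 hpd, the last from 3 and 4 fragments. It paused between 1 and 2 hpd and fell again, by -2.48 ± 0.48 on the log2 scale between 2 and 6 hpd (adjusted p = 0.0247). The call for that second fall was lost in 4 of 16 alternatives. The unit at chrX:84398158-84443096, opposite Dmd, the gene of the muscle protein dystrophin, went from 21.3 and 19.5 CPM to 13.9 and 8.47 CPM at 0.5 hpd and 2.81 and 2.45 CPM at 6 hpd (-2.96 ± 0.23, adjusted p = 7.65e-07). The unit at chr6:65261673-65270627 was among those lower at 0.5 hpd, going from 26 and 54 fragments in NT to 8 and 3 (-3.23 ± 0.51, adjusted p = 0.00524), and that call was lost without NT replicate 2 (adjusted p = 0.0967) and without 0.5 hpd replicate 1 (adjusted p = 0.0642).

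**Figure D5:**
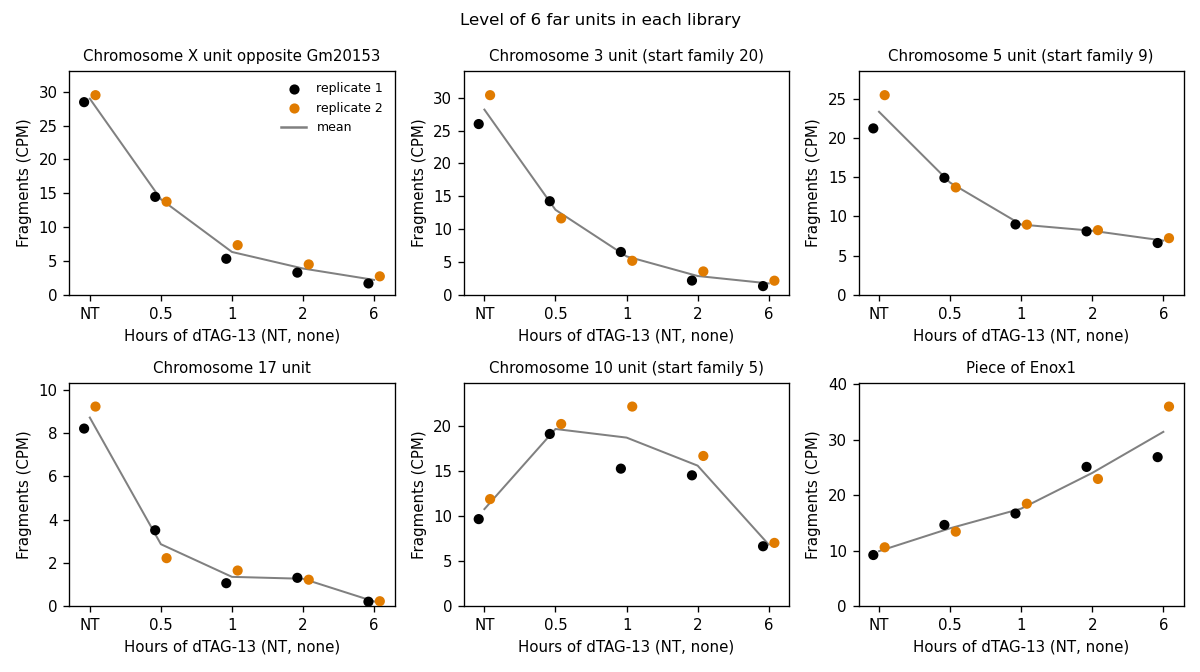
Level (CPM) of 6 far units in each library against hours of dTAG-13, with points for libraries and lines through the means, each panel on its own axis from 0 and the times evenly spaced. The units on chromosomes X, 3, 5 and 17 fell from 0.5 hpd on, the chromosome 10 unit rose and then fell below NT, and the piece of Enox1 rose to 26.8 and 35.9 CPM at 6 hpd.

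Few units outside genes rose early. The unit at chr7:133556566-133576897, with Tex36 as its nearest RefSeq gene at 10.1 kb, read 6.93 and 3.85 CPM in NT, 11.4 and 9.49 CPM at 0.5 hpd, 10.2 and 11 CPM at 1 hpd and 6.67 and 5.07 CPM at 6 hpd. The difference from NT was 0.96 ± 0.23 at 1 hpd (adjusted p = 0.0219), and the 6 hpd pair lay within the NT range. Between 1 and 6 hpd it moved by -0.86 ± 0.23 (adjusted p = 0.0425), a call lost in 4 of 17 alternatives. The 1 hpd call was lost without NT replicate 2 and without either 1 hpd library (adjusted p = 0.215, 0.0869 and 0.142). The unit at chr5:129393851-129400940 had 6 and 5 fragments in NT, 36 and 29 at 0.5 hpd and 10 and 14 at 6 hpd, and passed the test at 0.5 hpd (2.23 ± 0.44, adjusted p = 0.0182) and not at 6 hpd (0.98 ± 0.51, adjusted p = 0.212). At 1 hpd the test gave adjusted p = 0.0279, and leaving out any 1 of the NT or 1 hpd libraries raised it to between 0.112 and 0.17. The unit at chr12:43984148-43990965 had 1 and 0 fragments in NT, 15 and 6 at 0.5 hpd and 5 and 14 at 1 hpd. It met the count limit only through 1 library each of 0.5 and 1 hpd, in which it was high, so its call at 1 hpd (adjusted p = 0.037), which was also lost without either NT library and without 1 hpd replicate 2, is no independent result. Among units named for a rise at 6 hpd, the one at chr13:95900089-95913987, 86.3 kb from Sv2c, read 2.29 and 2.62 CPM in NT, 3.28 and 5.13 CPM at 0.5 hpd, 4.14 and 6.38 CPM at 1 hpd, 4.85 and 7.71 CPM at 2 hpd and 9.62 and 10.9 CPM at 6 hpd. It was above both NT libraries from 0.5 hpd on, and the difference from NT was 1.11 ± 0.31 at 1 hpd and 2.07 ± 0.29 at 6 hpd (adjusted p = 0.0461 and 0.000184).

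Higher calls at 6 hpd came mostly from pieces of protein-coding genes. The unit at chr14:77156947-77234491 lay wholly inside Enox1, which encodes a cell-surface oxidoreductase, with a start within 1000 bp of an annotated start of that gene. It read 9.22 and 10.6 CPM in NT, 14.6 and 13.4 CPM at 0.5 hpd, 16.7 and 18.4 CPM at 1 hpd, 25.1 and 22.9 CPM at 2 hpd and 26.8 and 35.9 CPM at 6 hpd. Each pair lay above the pair before it, and the log2 fold change was 0.83 ± 0.16 at 1 hpd and 1.67 ± 0.16 at 6 hpd (adjusted p = 0.00519 and 4.37e-06), although the 1 hpd call was lost without NT replicate 1 (adjusted p = 0.0553) and without 1 hpd replicate 2 (adjusted p = 0.0664). The unit over Frk, a gene of a SRC-like tyrosine kinase, stood at 14.9 and 16.4 CPM in NT, 12.7 and 12.7 CPM at 0.5 hpd, 14.3 and 14 CPM at 1 hpd, 17.3 and 15.3 CPM at 2 hpd and 27.2 and 31.0 CPM at 6 hpd, which put its rise (0.89 ± 0.13, adjusted p = 0.000217) after 2 hpd. Of 51 far units in coding genes that started within 1000 bp of a gene start, 13 were higher at 6 hpd (25.5%) and 1 lower (1.96%). Of Single Gene units 10.4% and 7.73% were, and of all tested units 6.61% and 9.2%. Whether these shares differ was not tested. The higher ones included units of Adgrl2, of an adhesion receptor (0.91 ± 0.14), and Nrip1, of a nuclear receptor corepressor (0.62 ± 0.10).

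In the genes with several called pieces named here, the called pieces moved in 1 direction, and they count as 1 gene rather than as separate results. All 4 pieces of Ank3, the gene of the membrane adaptor ankyrin G, were higher at 6 hpd, with log2 fold changes from 1.48 to 4.24. For Celf2, of an RNA-binding splicing regulator, 7 of 8 pieces were higher, and the 8 log2 fold changes ran from 0.74 to 2.15. All 3 pieces of Carmil1, a regulator of actin capping, were higher, from 0.58 to 0.73. In the other direction, both pieces of Adamtsl1, of a secreted ADAMTS-like protein, were lower (-2.31 and -2.09), as were both of Brinp3 (-2.81 and -4.43) and 2 of 3 of Nav2, of a neuron navigator protein (-2.37 and -1.73). For Erc2, of a scaffold of the presynaptic active zone, 2 of 7 pieces were lower (-1.29 and -1.14). At 6 hpd, called falls were of units with a median length of 7641.5 bp and called rises of units with a median of 31431 bp, against 3945 bp for units not called.

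Of the 5 far units with the highest mean CPM, none passed the test at 6 hpd. The units over Map4k4, of a kinase upstream of JNK, Eya1, of a transcriptional coactivator, and Rptor, of the scaffold of the growth-controlling mTORC1 complex, had 264 to 343, 202 to 325 and 210 to 251 CPM over the 10 libraries, with adjusted p = 0.138, 0.14 and 0.482 at 6 hpd. The Eya1 unit was higher at 6 than at 1 hpd (0.51 ± 0.12, adjusted p = 0.0231), a call lost in 3 of 17 alternatives. Outside genes, the unit at chr16:7917126-7951702, 146 kb from the nearest RefSeq gene, read between 184 and 206 CPM in all libraries, with a log2 fold change of -0.02 ± 0.10 at 6 hpd. The longest far unit, 201104 bp over Cask, of a scaffold protein, read 58.8 and 46.7 CPM in NT and 65.7 and 64.7 CPM at 6 hpd (0.31 ± 0.21, adjusted p = 0.347). The unit farthest from a Single Gene unit, at chrY:43916840-43931561 and 96.8% soft-masked repeat, read 7.67 and 11.6 CPM in NT and 3.16 and 4.6 CPM at 6 hpd (-1.29 ± 0.38, adjusted p = 0.0328), a call lost without NT replicate 2 and without either 6 hpd library (adjusted p = 0.296, 0.202 and 0.0756).

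In the 3 densest units, all short, the fragment count hardly followed the depth of the library. The unit at chr13:9834000-9834906, 907 bp outside RefSeq genes, had 3284 to 4054 fragments in libraries whose totals differed 2.32-fold. Its counts had a coefficient of variation of 7.70% over the 10 libraries and its CPM one of 19.9%, while the library totals had 25.4%. The 547 bp unit at chr1:100179883-100180429, opposite Cntnap5b, and the 148 bp unit at chr1:195240728-195240875 behaved alike, with 7.33% against 18.1% and 6.92% against 19.8%. Of 209 far units with at least 1000 fragments, 39 had counts that varied less than their CPM. For 25 of these the counts still varied as much as the library totals or more, and they include strongly falling units such as those on chromosomes X and 3 described above. The other 14 had counts that varied less than the library totals, and 13 of them were 1000 bp or shorter. The files were made after duplicate fragments had been removed, and what part that has in these counts was not tested. The CPM of all 3 was lowest in 0.5 hpd replicate 1, the library with the most fragments, and none of the 3 passed the test against NT at any time.

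Short far units inside pseudogenes often matched a coding transcript of another gene. Of 751 far units up to 3000 bp, 271 (36.1%) aligned to a protein-coding transcript at 90% identity or more over at least 50% of their length, 236 of them in the pseudogene class and 37 to ribosomal protein genes. The median identity was 97.2%, and 66 matched at 99% or more. Their counts may hold fragments of the parent gene, or lack fragments dropped for low mapping quality, and are uncertain. The most abundant, at chr8:52196245-52197181, was 99.4% identical to Eif2s2, which encodes a subunit of translation initiation factor eIF2. One library stood apart for this class. Pseudogene units summed to 884 and 965 CPM in NT, 813 and 826 CPM at 0.5 hpd, 821 and 777 CPM at 1 hpd, 900 and 886 CPM at 2 hpd, but 1513 and 864 CPM at 6 hpd. Their median log2 fold change at 6 hpd was 0.38, was -0.12 without 6 hpd replicate 1 and 0.79 without 6 hpd replicate 2, so its direction rested on that library. Of the 314 pseudogene units, 5 were higher (1.59%) and 7 lower (2.23%) at 6 hpd, against 6.61% and 9.2% of all tested units.

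Start windows of far units differed in base content from those of genes. Their median was 47.0% G or C with 4 CG dinucleotides, against 48.3% and 4 for all kept Extragenic units and 58.7% and 16 for Single Gene units, and 48.7% of the window was soft-masked repeat, against 41.3% and 7.33%. The letters TATAAA, the TATA box form, stood on either strand in 21.9% of far windows, 17% of all kept Extragenic windows and 8.16% of gene windows, and in 30.9% of those of the 220 units lower at 6 hpd, against 20.8% of those of the 1552 not called then. The SOX core forms ACAAAG or ACAATG, counted once per window, stood in 33.2%, 32.2%, 22.4% and 34.5%, in 33.7% of far windows not called at 6 hpd, in 17.2% of the 64 higher then and in 41.2% of the 68 lower at 1 hpd. ACAATG alone stood in 18.6% of lower and 13.7% of uncalled far windows at 6 hpd, and outside RefSeq genes in 19.9% and 11.2%. The commoner form ACAAAG stood in 23.2% and 22.9%, and outside RefSeq genes in 26.5% and 23.8%. The octamer ATGCAAAT stood in 2.73% of lower and 2.64% of uncalled far windows, and the SOX-OCT composite in 0 of the 220 lower ones and 1 of all 1836. AACAAT, another SOX core form that was added after the windows were seen, stood in 15.1%, 12%, 6.72% and 22.7%, and in 14.2% of uncalled ones. GGGTGTGG, a KLF form, stood in 3.98%, 4.68%, 4.14% and 10.5%, and in 3.09% of uncalled ones. None of these shares was tested. Motif matches were shared within families. GGGTGTGG was in 24 of the 37 windows of family 5, and AACAAT in 7 of the 10 of family 9.

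Most Single Gene units nearest to falling far units were not called. Each gene is counted once here, and a gene can be nearest to both called and uncalled far units. Of 54 tested Single Gene units nearest to far units lower at 1 hpd, 2 were lower at 1 hpd (3.70%) and 0 higher, against 50 (5.09%) and 28 (2.85%) of 982 nearest to far units not called, and 3.56% and 3.55% of all Single Gene units. The share of lower neighbours was thus near the background. At 6 hpd, 18 of 156 nearest to lower far units were lower (11.5%) and 12 higher (7.69%), against 87 (9.62%) and 119 (13.2%) of 904 nearest to uncalled ones, and 7.73% and 10.4% of all Single Gene units. These shares were not tested. Of 16 far units whose nearest Single Gene unit belongs to a list of pluripotency and Sox genes, 1 was lower and 2 higher at 6 hpd, where 9.2% and 6.61% of all tested units were, and so few units cannot be told from that background. The lower one, at chr1:137334530-137335018 and 381 kb from Nr5a2, a nuclear receptor gene of the pluripotency network, went from 1.08 and 1.24 CPM to 0.281 and 0.233 CPM (-2.15 ± 0.47, adjusted p = 0.00594), a call lost without 6 hpd replicate 2 (adjusted p = 0.0633). Nr5a2 itself fell by 0.52 on the log2 scale (adjusted p = 0.0118). One of the higher ones, at chr3:34485811-34491578 and 147 kb from Sox2ot, the RNA gene that spans Sox2, had 6 and 3 fragments in NT and 19 and 12 at 6 hpd (1.64 ± 0.52, adjusted p = 0.0448), a call lost without either NT library and without 6 hpd replicate 1 (adjusted p = 0.0606, 0.252 and 0.285).

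Between later times, 70 far units were lower and 29 higher at 6 than at 1 hpd, where 2.92% of all units were lower and 1.96% higher. Between 2 and 6 hpd, 11 were lower and 4 higher (background 0.517% and 0.26%), and between 1 and 2 hpd 1 was lower and 0 higher (background 0.197% and 0.0211%), beside 76 and 45 at an unadjusted p under 0.05. The 99 calls between 1 and 6 hpd became 56 and 32 without 1 hpd replicate 1 and 2, and 37 without 6 hpd replicate 1. The 15 between 2 and 6 hpd became 6, 7 and 1 without 2 hpd replicate 1, 2 hpd replicate 2 and 6 hpd replicate 1.

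Summed over 8 embryonic stem cell genes, the level was 4098 to 4501 CPM in NT and 3549 to 4192 CPM after depletion, and each of the 5 lists for other lineages, taken by itself, summed to at most 30.0 CPM in any library. Of the 8, Pou5f1 (-0.62, adjusted p = 0.00103), Nanog (-0.43, adjusted p = 0.012), Esrrb (-0.53, adjusted p = 0.00324) and Dppa5a (-0.58, adjusted p = 0.023) were lower at 6 hpd on the log2 scale, and Dppa5a was already lower at 1 hpd. The primitive endoderm list went from 4.71 and 3.85 CPM in NT to 6.46 and 7.28 CPM at 6 hpd, the fibroblast list (1 tested gene) from 0.471 and 0.872 to 0.913 and 1.16 CPM and the neural list from 25.6 and 28.0 to 19.7 and 21.5 CPM, with Nes, an intermediate filament gene, lower (-0.97, adjusted p = 0.00075) and no other tested member of these 3 lists past the test at 6 hpd. The mesoderm list read 2.89 and 3.05 CPM in NT, 7.26 to 9.58 CPM over the libraries of 0.5 to 2 hpd and 3.79 and 3.90 CPM at 6 hpd, and the trophoblast list 3.77 and 5.52 CPM, 8.22 to 10.8 CPM and 4.36 and 4.43 CPM. Both lists hold Eomes, a T-box transcription factor gene, which went from 2.15 and 2.69 CPM in NT to 7.53 and 7.52 CPM at 1 hpd, while Mixl1 and Gata3, the other tested members, did not pass the test at 1 hpd. The part of these changes in the results for far units was not tested. At the distance limit, the far unit just inside, 50024 bp from Cox4i1, read 0.875 and 1.09 CPM in NT and 0.562 and 0.524 CPM at 6 hpd, and the unit just outside, 49937 bp from Mir582, read 53.0 and 53.7 CPM and 52.3 and 65.7 CPM.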

How the data were processed

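TTchem-seq fragments had been counted per transcribed unit by the authors, and the deposited table held raw counts of 10 libraries. Per the study's methods and processing notes, reads were aligned to mm10 with BWA 0.7.17-r1188, filtered with SAMtools 1.10, stripped of duplicates with Picard 2.12.0 and split by strand. The filter dropped alignments with a mapping quality under 10. Units were called on the pooled libraries, so a unit's borders are those of all groups together. The far units, the gene lists and the comparisons described were chosen with earlier results of these data known.

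Library totals were 11131490 to 25854106 fragments. The 28459 units that passed the limit of more than 10 fragments in 2 or more libraries were fitted together with edgeR 4.0.16 in R 4.3.3 (TMM factors, 1 coefficient per group, quasi-likelihood F-test). P-values were adjusted over all of them by Benjamini-Hochberg, and a call is an adjusted p below 0.05. The SE is the log2 fold change over the square root of F. CPM are edgeR's counts scaled to a common total, with TMM factors. Scripts were tested on simulated data with known changes.

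Units were compared with RefSeq GRCm38 and GENCODE by overlap on each strand, and those up to 3000 bp with GENCODE coding transcripts by blastn 2.17.0. Sequences are from RefSeq's GRCm38, with coordinates counted from 1. Units were named by the lowest p among called rises and falls at each time (5 each way at 1 hpd, otherwise 3), the highest, densest, longest and farthest units, units that rose at 1 hpd and fell by 6 hpd, units whose nearest gene unit is on the pluripotency and Sox list, and those beside the distance limit. Other units named, as members of start families, pieces of a gene or near copies, were chosen after their values were seen. Alternatives were DESeq2 1.42.0, other scaling, count filters and library sets, a replicate block, other distance limits, chains in place of units, and leaving out each library.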

Additional observations from a re-analysis of the deposited data

Results flagged for a closer look

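The change from NT differed between times for 12 of the named units by a direct test between the depleted groups, with 2 libraries each (edgeR quasi-likelihood test, Benjamini-Hochberg adjusted over all tested units). Values are log2 differences ± SE, the later time against the earlier. The units were named from values of these same libraries, most by their p-values against NT, so these differences are no independent results.

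Of the falling units, the one at chrX:150147385-150187271 went down by -1.15 ± 0.19 between 0.5 and 1 hpd (adjusted p = 0.0336) and by -1.50 ± 0.24 between 1 and 6 hpd (adjusted p = 0.00192). Between 1 and 6 hpd the unit at chr3:22274782-22297950 moved by -1.71 ± 0.28 (adjusted p = 0.00183) and the one at chrX:84398158-84443096 by -1.19 ± 0.25 (adjusted p = 0.011). The unit at chr17:40470005-40495589 moved by -2.58 ± 0.48 from 1 hpd and by -2.48 ± 0.48 from 2 hpd to 6 hpd (adjusted p = 0.00508 and 0.0247). The unit at chrY:43916840-43931561, which was 0.20 ± 0.34 against NT at 1 hpd, moved by -1.49 ± 0.38 to 6 hpd (adjusted p = 0.0327).

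The units at chr10:48880529-48907097 and chr7:133556566-133576897 were above NT early and lower at 6 than at 1 hpd, by -1.45 ± 0.18 and -0.86 ± 0.23 (adjusted p = 0.000264 and 0.0425). A called fall from 1 to 6 hpd was itself part of 1 rule under which both were named, so these calls were fixed by that rule. The chromosome 10 unit was also lower at 6 than at 2 hpd, by -1.18 ± 0.18 (adjusted p = 0.00572).

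Between 1 and 6 hpd the Enox1 unit at chr14:77156947-77234491 rose by 0.84 ± 0.15 (adjusted p = 0.00327), the unit in Gm52620 at chr3:153093869-153113405 by 1.35 ± 0.35 (adjusted p = 0.0392), the unit at chr13:95900089-95913987 by 0.96 ± 0.26 (adjusted p = 0.0442), and the Eya1 unit at chr1:14159928-14312639 by 0.51 ± 0.12 (adjusted p = 0.0231). The Frk unit at chr10:34483482-34616443 rose by 1.04 ± 0.13 from 1 hpd and by 0.84 ± 0.13 from 2 hpd to 6 hpd (adjusted p = 0.000216 and 0.00434).

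Of these 16 differences between times, 4 kept their call under every alternative run and 12 lost it under at least 1, while all 269 alternatives kept the direction. The 4 were those between 1 and 6 hpd of the units at chrX:150147385-150187271, chr3:22274782-22297950, chr10:48880529-48907097 and chr10:34483482-34616443. The step from 0.5 to 1 hpd at chrX:150147385-150187271 lost its call in 7 of 17 alternatives (adjusted p up to 0.674), and the step from 1 to 6 hpd at chr13:95900089-95913987 lost it in 8 of 17 (up to 0.309). The others lost it in 1 to 6, most often when 1 of the compared libraries was left out.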

How the results depend on the processing

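Counts of called far units moved by more than 1.5 times under the following alternatives. The counts against NT (14, 75, 144 and 284 in order of time, 203 by the joint test) became 4, 15, 34, 70 and 48 when only units with a mean of at least 50 counts were kept, which leaves fewer units, and 9, 34, 76 and 179 with DESeq2 at the 4 times. With only the libraries compared, 23 were called at 0.5 hpd and 118 at 1 hpd. Limits of 25000 and 100000 bp gave 24 and 9 at 0.5 hpd. Between times (1, 1, 15 and 99 for 0.5 to 1, 1 to 2, 2 to 6 and 1 to 6 hpd), the higher filter gave 0, 0, 9 and 34 (18 and 23 at an unadjusted p under 0.05 for the first pair). DESeq2 gave 3 and 5, no count filter 2 and 3, and only the libraries compared 5 and 4 for the first pair, the last also 152 for 1 to 6 hpd. From 1 to 2 hpd, total counts gave 0 (112 at an unadjusted p under 0.05) and the limit of 25000 bp gave 2. The 166 lower units outside RefSeq genes at 6 hpd became 30 with the higher filter and 96 with DESeq2, and the 41 higher units in coding genes 20 with the higher filter. Causes were not tested.

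Leaving out 1 library gave 0 to 19, 32 to 83, 56 to 157 and 131 to 307 calls at the 4 times, 135 to 249 by the joint test, and 0 to 4, 0 to 4, 1 to 20 and 32 to 119 between times. Lower units outside RefSeq genes ran from 73 to 178, higher units in coding genes from 14 to 49, and the pseudogene median from -0.12 to 0.79.

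With the replicate number as a block, 55, 154, 260 and 431 far units were called at the 4 times, 414 by the joint test, 13, 15, 67 and 229 between times, and 68 higher in coding genes. The pairing is not established: the labels give only 2 numbers, and the deviations of same-numbered libraries correlated at 0.0742 to 0.291, above 0.1 in 8 of 10 pairs of groups.

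Of 19 called named units, 9 kept the call under every alternative, and all 312 alternatives run on these units kept the direction.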
